A study of Mus musculus with 8 samples.

Results

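The genes described here are 10 chemokine genes that epithelial cells of the gut can express: Cxcl1, Cxcl2, Cxcl5, Cxcl9, Cxcl10, Cxcl16, Cx3cl1, Ccl2, Ccl20 and Ccl28. They were chosen by name and make up 10 of the 55414 genes in the count table. Expression was measured by bulk RNA-seq of Paneth cells (PCs), secretory cells at the base of small intestinal crypts, in 8 libraries from 1 mouse each. Of the mice, 4 drank Milli-Q water and 4 drank water with 25 mM ZnSO4, for 7 days in both groups. All 8 mice then received tumor necrosis factor (TNF), and their PCs were collected 3 hours later. The labels give no age, genotype or batch; the methods of the study name C57BL/6J mice and a sort for CD24+ and c-Kit+ cells of medium to high side scatter that lack CD31, CD45 and TER119, markers of endothelium, leukocytes and red cells. No mouse was without TNF, so the values are levels after TNF and not changes caused by it.

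Chemokines are small proteins that draw cells along a gradient by binding receptors on their surface. Cxcl1, Cxcl2 and Cxcl5 attract neutrophils through Cxcr2, while Cxcl9 and Cxcl10 are induced by interferon and attract activated T cells through Cxcr3. Cxcl16 and Cx3cl1 are made as membrane proteins, which proteases cut to release the soluble chemokine, and bind Cxcr6 and Cx3cr1. Ccl20 draws dendritic cells and lymphocytes through Ccr6 and marks the epithelium over lymphoid follicles, Ccl28 is a mucosal chemokine that draws IgA plasma cells through Ccr10, and Ccl2 attracts monocytes through Ccr2. TNF acts on epithelium mainly through its receptor Tnfrsf1a and the transcription factor NF-kB, and many chemokine genes are NF-kB targets.

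Libraries held 10623658 to 15101627 counts in total. Levels are given as CPM, in which TMM factors bring all libraries to 1 size; a count of 0 allows up to 3 counts, which were worth 0.179 CPM in Milli-Q water 2, the largest library after scaling, and 0.369 CPM in Milli-Q water 3, the smallest. One library stood apart: zinc replicate 3, called zinc 3 here, correlated with the others at r = 0.847 to 0.903 (over the log2 CPM of all genes tested, which are not independent of each other), where no pair of the other 7 libraries was under 0.954. The fold changes are therefore given with and without it. In zinc 3 the summed level of the enterocyte markers was 498 CPM, against 81.5 to 151 CPM in the other 7 libraries, and 12 of the 12 markers were highest there. Summed crypt stem cell markers were at 1163 CPM in zinc 3 (6 of 8 highest there) and at 438 to 1127 CPM in the others. Enteroendocrine and tuft cell markers summed to 36.5 CPM in zinc 3 (4 of 10 highest there) and to 17.7 to 28.6 CPM in the others. Goblet cell markers summed to 6129 CPM in zinc 3 (4 of 8 highest there), inside the 3949 to 10554 CPM of the others. By group, goblet sums were 3949 to 6308 CPM with water and 6129 to 10554 CPM with zinc. Crypt stem cell sums were 438 to 626 CPM with water and 518 to 1163 CPM with zinc. Without zinc 3, 6 of the 7 stem cell markers tested were higher with zinc, against 5446 of all 10755 genes tested. For goblet cell markers 4 were then higher and 4 lower, and no marker of either list passed the test. The 10 Paneth cell markers summed to 400010 CPM in zinc 3, inside the 343844 to 621514 CPM of the others, so their sum was high in all 8 libraries. Zinc 3 was highest for 2 of the 10 and lowest for 2. The sum weighs the most abundant markers and does not describe each one. Leukocyte markers were low throughout (8 of 18 at 0 in all libraries, 17 of 18 at no more than 10 counts in any library; Lyz2 was the exception), and their sum was 13.3 CPM in zinc 3 and 14.02 to 28.1 CPM in the others. Of the 12 stromal and endothelial markers, 9 were at 0 throughout.

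Of the 10 chemokine genes, 5 lie on chromosome 5 of GRCm39, between positions 90907186 and 92496748. The promoter table of RefSeq held 7 of the 10 (none for Cxcl5, Cxcl16 and Ccl2), each as a window of 250 bases before to 50 bases after the transcript start. A search of both strands found the 10-letter NF-kB consensus in Cxcl1, Cxcl2, Cxcl10 and Ccl20, and not in the windows of Cxcl9, Ccl28 and Cx3cl1; of all 32851 RefSeq windows, 8.46% held it. The bases before the start of these 4 genes are shown, since they carry the motif of the factor that TNF activates, with those of Ccl28, which lacks it, for comparison. They are written 5′ to 3′ on the strand of the gene, and capitals mark the bases that match the consensus on either strand. In GRCm39 they are chr5:91038854-91039103 (Cxcl1, plus strand), chr5:91051508-91051757 (Cxcl2, plus), chr5:92496749-92496998 (Cxcl10, minus), chr1:83094237-83094486 (Ccl20, plus) and chr13:120085105-120085354 (Ccl28, plus), each found there by exact match of the RefSeq window, which RefSeq gives for GRCm38.p6.
Cxcl1: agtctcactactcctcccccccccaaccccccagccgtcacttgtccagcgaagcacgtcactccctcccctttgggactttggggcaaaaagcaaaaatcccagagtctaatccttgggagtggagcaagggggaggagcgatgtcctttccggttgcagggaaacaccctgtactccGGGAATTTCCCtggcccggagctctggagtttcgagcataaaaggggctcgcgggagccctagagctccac
Cxcl2: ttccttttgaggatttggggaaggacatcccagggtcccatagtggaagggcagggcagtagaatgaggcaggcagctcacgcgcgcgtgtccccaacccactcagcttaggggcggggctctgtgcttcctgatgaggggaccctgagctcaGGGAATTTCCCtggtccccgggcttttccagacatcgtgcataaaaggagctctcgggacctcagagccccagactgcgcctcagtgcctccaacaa
Cxcl10: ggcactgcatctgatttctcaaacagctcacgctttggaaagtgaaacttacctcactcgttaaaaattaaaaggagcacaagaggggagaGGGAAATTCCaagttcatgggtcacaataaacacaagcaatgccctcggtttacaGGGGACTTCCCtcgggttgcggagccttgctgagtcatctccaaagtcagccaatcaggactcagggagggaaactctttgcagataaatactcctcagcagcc
Ccl20: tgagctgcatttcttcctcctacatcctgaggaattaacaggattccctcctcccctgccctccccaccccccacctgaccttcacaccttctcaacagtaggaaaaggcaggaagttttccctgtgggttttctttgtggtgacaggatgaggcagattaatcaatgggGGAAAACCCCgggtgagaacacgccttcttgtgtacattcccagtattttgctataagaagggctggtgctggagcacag
Ccl28: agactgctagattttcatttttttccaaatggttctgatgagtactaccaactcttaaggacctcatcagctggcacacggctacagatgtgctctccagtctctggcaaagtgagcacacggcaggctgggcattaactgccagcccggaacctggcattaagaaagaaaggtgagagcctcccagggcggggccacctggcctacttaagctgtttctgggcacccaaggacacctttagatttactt

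Counted from the start, with the base before it as -1, the matches lay at -71 to -61 in Cxcl1 and at -97 to -87 in Cxcl2, each made of 2 overlapping matches, and the 11 letters were the same in both genes (GGGAATTTCCC). Cxcl10 had matches at -159 to -150 and at -104 to -94, and Ccl20 had 1 match on the opposite strand at -80 to -71. Cxcl10 and Cxcl9 also held the core of the interferon response element (ISRE, searched as GAAANNGAA, in 8.56% of all windows), at -213 to -205 and -175 to -167. The AP-1 motif (TGANTCA, in 7.81% of windows) lay in Cxcl10 at -74 to -68, in Cxcl9 at 32 to 38 and in Ccl28 at 21 to 27. The GAS element of the interferon response (TTCNNNGAA, in 8.30% of windows) was in none of the 7 windows. A match describes letters and is no evidence that a factor was bound.

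**Figure D1:**
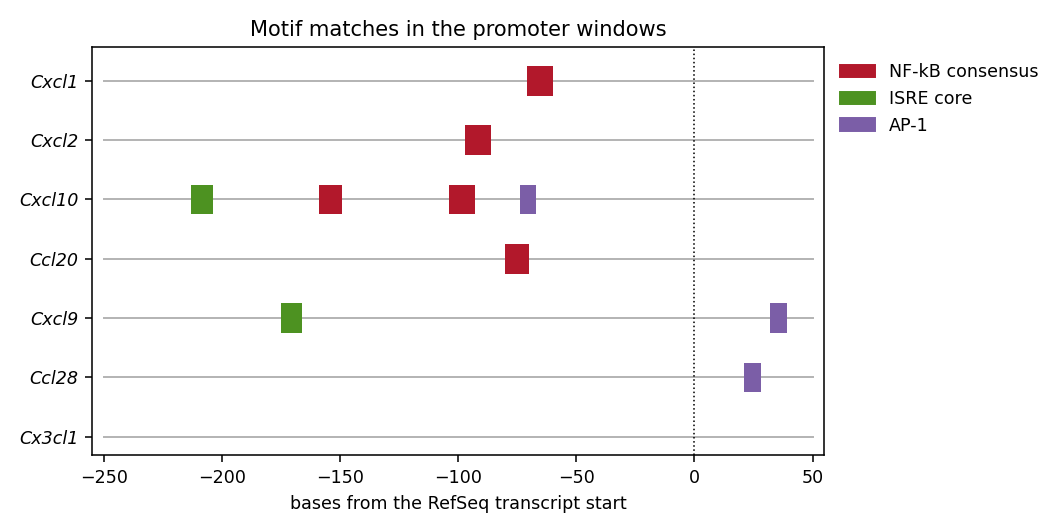
Positions of motif matches in the RefSeq promoter windows of 7 chemokine genes, in bases from the transcript start (dotted line); each grey line is 1 window and coloured boxes are NF-kB, ISRE core and AP-1 matches on either strand. NF-kB matches lie in Cxcl1, Cxcl2, Cxcl10 and Ccl20, and the Cx3cl1 window has no match to any motif searched.

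The first question was which chemokines PCs express 3 hours after TNF. With a minimum of 10 counts in every library, 3 of the 10 were detected, Cxcl16, Cx3cl1 and Ccl28; without zinc 3 there were 5, with Cxcl10 and Ccl20 added. Cxcl1 and Cxcl2 reached 10 counts in 6 of the 8 libraries each. Cxcl9 and Cxcl5 were at the edge of detection, and Ccl2 had no count in any library. The default filter of edgeR on low counts kept 10707 genes, among them 7 of the 10 chemokines; Cxcl5, Cxcl9 and Ccl2 fell below it. In bulk RNA, fewer cells that express a gene and less RNA per cell cannot be told apart, so a low level may belong to all PCs or to few cells.

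Levels of different genes were compared per length, as CPM per kilobase of the canonical transcript. Cxcl10 was at 18.1 ± 12.0, Ccl20 at 16.5 ± 8.04 and Cxcl16 at 16.1 ± 7.04 CPM per kilobase (SD, n = 8), and these leading 3 could not be ordered: Cxcl10 was above Ccl20 in 4 of 8 libraries, and Ccl20 above Cxcl16 in 3 of 8. Ccl28 followed at 5.58 ± 1.51, Cxcl1 at 3.69 ± 2.54, Cx3cl1 at 3.57 ± 1.31 and Cxcl2 at 2.19 ± 2.23 CPM per kilobase. Cxcl9 (0.303 ± 0.344) and Cxcl5 (0.0432 ± 0.0804) closed the order. No neighbours in it differed in all 8 libraries; without zinc 3, Cxcl16 was above Ccl28 in 7 of 7. Over those 7 libraries the leading 3 were at 20.7 ± 10.3, 18.9 ± 4.88 and 18.3 ± 3.45, Ccl28 at 5.96 ± 1.16, Cxcl1 at 4.21 ± 2.23, Cx3cl1 at 3.74 ± 1.32 and Cxcl2 at 2.50 ± 2.21 CPM per kilobase (SD, n = 7), in the same order. When lengths were taken as the union of all exons, Cxcl16 came first and Cxcl10 was the third.

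**Figure D2:**
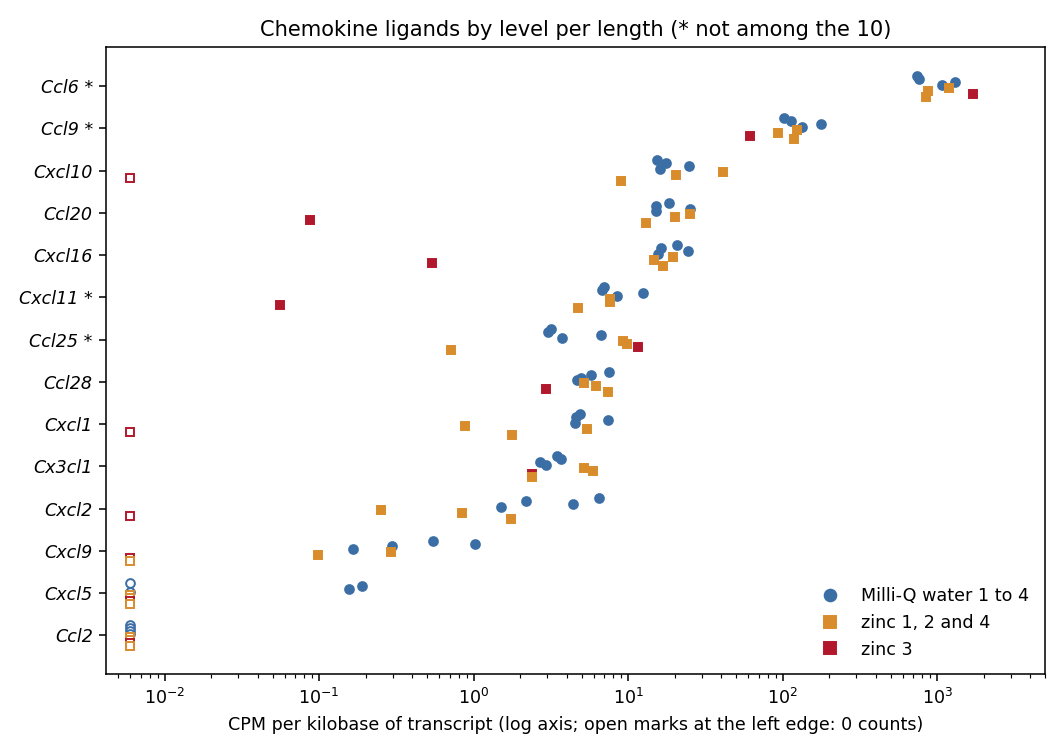
Levels of chemokine ligands in CPM per kilobase of transcript (log axis), for the 10 genes described and the other ligands that passed the filter on low counts (asterisk); each mark is 1 library, and open marks at the left edge are 0 counts. Cxcl10, Ccl20 and Cxcl16 lie together near 16.1 to 18.1 on average, below Ccl6 and Ccl9, and zinc 3 lies far left for all 3.

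Among the 7 chemokines tested, the neutrophil chemokines Cxcl1 and Cxcl2 had the lowest log2 fold changes, and neither passed the test. Cxcl1 (ENSMUSG00000029380, chromosome 5, 91039094 to 91040974, plus strand) was at 4.65, 4.41, 7.14 and 4.32 CPM in Milli-Q water 1 to 4 and at 0.843, 5.24, 0 and 1.69 CPM in zinc 1 to 4. All water libraries were above 3 of the zinc libraries, but zinc 2 lay inside the water range. The group levels were 5.13 ± 1.35 and 1.94 ± 2.30 CPM (SD, n = 4 each). The log2 fold change (zinc over water, here and throughout) was -1.37, with SE 0.776 and an edgeR adjusted p of 0.517. Without zinc 3 it was -0.92 (SE 0.456, edgeR adjusted p 0.642). Cxcl2 (ENSMUSG00000058427, chromosome 5, 91051730 to 91053797, plus strand), the near neighbour of Cxcl1, was at 7.25, 2.44, 4.92 and 1.68 CPM with water and at 0.281, 0.932, 0 and 1.94 CPM with zinc. Here too 1 zinc library, zinc 4, lay inside the water range. Its log2 fold change of -2.36 (SE 0.803) was the lowest of the 7, with an unadjusted p of 0.0143 and an adjusted p of 0.485 by edgeR, so it did not pass the threshold of 0.05. Without zinc 3 it was -1.91 (SE 0.586, edgeR adjusted p 0.5002), where zinc 1 and zinc 2 were below all water libraries and zinc 4 was not. Cxcl5 (ENSMUSG00000029371, chromosome 5, 90907186 to 90909483, plus strand) had 5 counts in Milli-Q water 2, 2 in Milli-Q water 3 and none elsewhere, too few to compare.

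The interferon-induced pair split into 1 gene at a high and 1 at a low level. Cxcl10 (ENSMUSG00000034855, chromosome 5, 92494497 to 92496748, minus strand) was at 17.0, 19.4, 27.3 and 17.8 CPM with water and at 45.5, 22.6, 0 and 9.84 CPM with zinc. The zinc group held both the highest and the lowest library, and its spread enclosed that of the water group. The log2 fold change was -0.07 (SE 0.859, edgeR adjusted p 0.979), and 0.36 (SE 0.358, adjusted p 0.824) without zinc 3, so its sign turned when that library was left out. Cxcl9 (ENSMUSG00000029417, chromosome 5, 92469206 to 92475945, minus strand) had 23, 50, 7 and 6 counts with water and 9, 4, 0 and 0 counts with zinc, or 1.57, 2.98, 0.862 and 0.480 CPM against 0.843, 0.287, 0 and 0 CPM. The groups overlapped in zinc 1. With no filter on low counts the fold change was -2.47 on the log2 scale (SE 0.854, edgeR adjusted p 0.443). Without zinc 3, where Cxcl9 passed the filter, it was -2.05 (SE 0.817, edgeR adjusted p 0.588).

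Both membrane-bound chemokines were expressed in every library. Cxcl16 (ENSMUSG00000018920, chromosome 11, 70344517 to 70352620, minus strand) had the most counts of the 10 genes and was at 61.6, 49.0, 73.4 and 46.7 CPM with water and at 58.1, 44.0, 1.61 and 50.2 CPM with zinc. Apart from zinc 3 all libraries lay within 44.0 to 73.4 CPM. The log2 fold change was -0.58 (SE 0.672, edgeR adjusted p 0.723), and -0.18 (SE 0.165, adjusted p 0.812) without zinc 3. Exons of Cxcl16 overlap Med11 and Zmynd15 on the other strand, over 43.2% and 41.6% of its exon length, and the strand setting of the counting was not known from the sources used here. Med11 was at 6.74 to 18.2 CPM, with zinc 3 lowest. Cx3cl1 (ENSMUSG00000031778, chromosome 8, 95498637 to 95509055, plus strand) was at 11.4, 12.2, 8.86 and 9.75 CPM with water and at 17.1, 19.6, 7.86 and 7.90 CPM with zinc. It was the single gene of the 7 tested with a higher mean in the zinc group: zinc 1 and zinc 2 were above all water libraries, zinc 3 and zinc 4 below them. The log2 fold change was 0.31 (SE 0.303, edgeR adjusted p 0.677), and 0.49 (SE 0.255, adjusted p 0.653) without zinc 3.

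Transcripts of the proteases that release these chemokines were present in all libraries. Adam10, the constitutive sheddase of Cx3cl1 and Cxcl16, was at 63.0, 59.8, 56.6 and 49.8 CPM with water and at 64.0, 64.6, 36.8 and 49.9 CPM with zinc (-0.09 on the log2 scale, SE 0.188, edgeR adjusted p 0.853). Adam17, the inducible sheddase that also releases TNF, was at 14.9 to 19.97 CPM with water and at 15.6, 18.2, 8.84 and 19.6 CPM with zinc (-0.18, SE 0.228, edgeR adjusted p 0.744). All 4 sheddases searched were lowest in zinc 3, against 30.0% of all genes tested, and none passed the test. Without zinc 3 the sign turned for both, to 0.06 for Adam10 and 0.02 for Adam17. Then 3 of the 4 sheddases were higher with zinc, against 5446 of all 10755 genes tested.

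The chemokines of lymphocyte homing behaved unlike each other in zinc 3. Ccl20 (ENSMUSG00000026166, chromosome 1, 83094487 to 83096888, plus strand) was at 14.7, 12.1, 20.3 and 12.2 CPM with water and at 20.1, 16.1, 0.0702 and 10.5 CPM with zinc; zinc 3 held 1 count. The other 3 zinc libraries spread around the water values, and the log2 fold change moved from -0.35 (SE 0.737, edgeR adjusted p 0.856) to 0.09 (SE 0.229, adjusted p 0.939) without zinc 3. Ccl28 (ENSMUSG00000074715, chromosome 13, 120085355 to 120115895, plus strand) was at 28.2, 21.5, 18.5 and 17.5 CPM with water and at 19.4, 23.1, 11.02 and 27.7 CPM with zinc. Its log2 fold change was -0.08 (SE 0.263, edgeR adjusted p 0.909), or 0.13 (SE 0.180, adjusted p 0.877) without zinc 3. Ccl2 (ENSMUSG00000035385, chromosome 11, 81926397 to 81928279, plus strand) had 0 counts in all 8 libraries, or no more than 0.369 CPM in Milli-Q water 3, where 3 counts were worth the most.

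**Figure D3:**
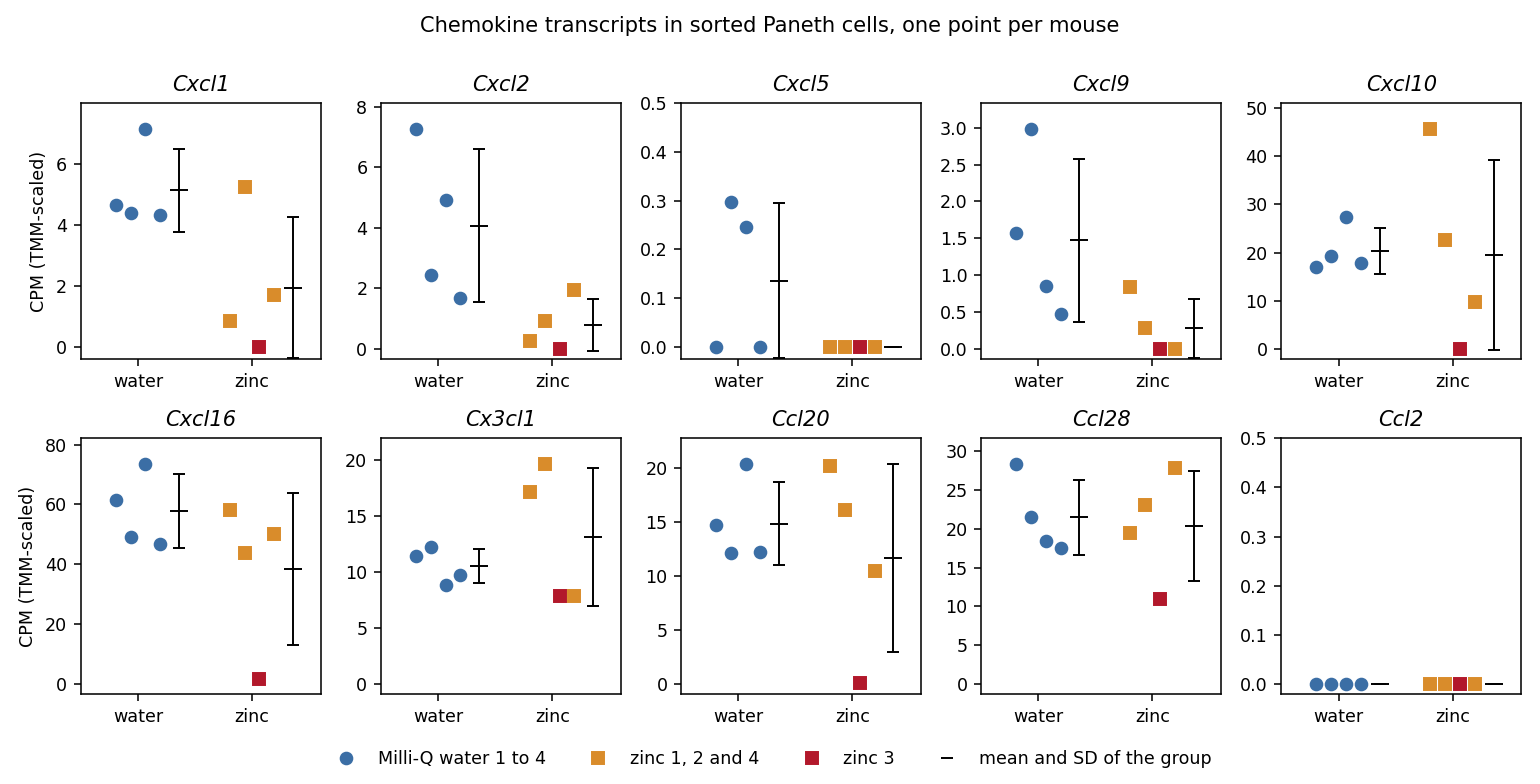
Level of each of the 10 chemokine genes in CPM (linear axes that differ between panels), 1 point per mouse, with the mean and SD of the 4 libraries of each group beside them. Zinc 3 is at 0 or near it for Cxcl1, Cxcl2, Cxcl10, Cxcl16 and Ccl20, at 7.86 CPM for Cx3cl1 and at 11.02 CPM for Ccl28.

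Zinc 3 was the lowest of the 8 libraries for 7 of the 7 chemokines tested; it was the lowest for 30.0% of all genes tested. With 0 counts taken as 3, it was at least 4-fold below the lowest of the other 7 libraries for 4 of the 7, Cxcl1, Cxcl10, Cxcl16 and Ccl20, as it was for 2.19% of all genes tested. Cxcl2, at 0 counts in zinc 3 and 3 counts in zinc 1, was not among them, and for Cx3cl1 zinc 3 and zinc 4 were nearly equal. Cxcl1 only just met the 4-fold limit. It was at 0.843 CPM in zinc 1, and 3 counts in zinc 3 were worth 0.211 CPM. Cxcl10 had 0 counts where the other libraries held 122 to 486, which made it at least 91.9-fold lower than their median (against the limit of 3 counts in zinc 3). By the same measure Cxcl1 was at least 20.9-fold, Cxcl2 at least 9.19-fold and Cxcl9 at least 4.01-fold lower. Ccl20 was 210-fold lower (95% exact Poisson interval of its 1 count 37.6 to 8275) and Cxcl16 was 31.1-fold lower (20.7 to 49.1, from 23 counts). Ccl28 with 157 counts was 1.95-fold lower (1.67 to 2.30) and Cx3cl1 with 112 counts was 1.45-fold lower (1.21 to 1.76). These intervals cover counting error in zinc 3 alone, with each read taken as a separate molecule, and a single library allows no test.

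Among all genes tested, ordered by the difference of zinc 3 from the median of the other libraries, 0.103% lay at or below Cxcl10, 0.149% at or below Ccl20, 0.355% at or below Cxcl1, 0.364% at or below Cxcl16 and 0.785% at or below Cxcl2. Ccl28 and Cx3cl1 lay well inside the distribution, with 11.3% and 21.8% of genes at or below them. The sum of the 10 genes was 110 to 162 CPM in the other 7 libraries and 20.6 CPM in zinc 3. Ccl28 and Cx3cl1 made up 16.9% to 32.5% of the chemokine counts in the other libraries and 91.8% in zinc 3. Summed enterocyte, crypt stem cell, and enteroendocrine and tuft cell markers were highest in zinc 3, as given above. For crypt stem cells the sum was 1163 CPM, close to the 1127 CPM of the highest other library. Summed goblet cell markers lay inside the range of the others. The part of all these markers in the chemokine values was not tested.

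**Figure D4:**
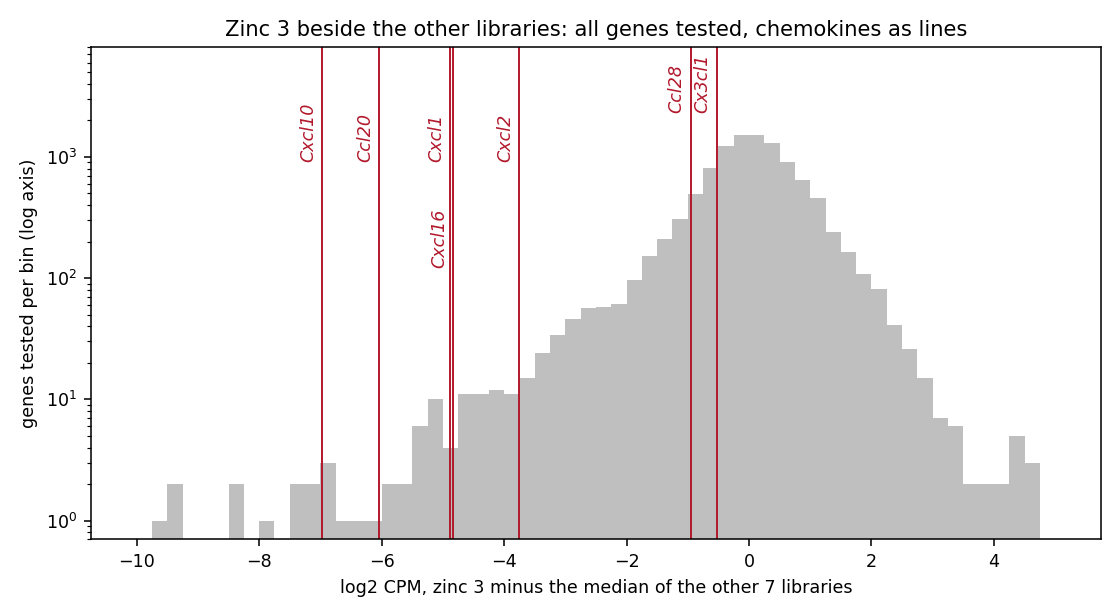
Number of genes tested (log axis) by the difference in log2 CPM between zinc 3 and the median of the other 7 libraries, with red lines at the 7 chemokines tested. Cxcl10, Ccl20, Cxcl1, Cxcl16 and Cxcl2 lie in the far left tail, from -6.98 to -3.75, and Ccl28 (-0.95) and Cx3cl1 (-0.53) in the body of the distribution.

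The second question was whether zinc in the drinking water changed these levels under TNF. No chemokine passed an adjusted p of 0.05, nor did any gene in the table (edgeR, 0 of 10707 genes, or 0%; limma-voom with sample weights also 0, DESeq2 4 genes). At an unadjusted p under 0.05, 1 of the 7 chemokines was called, Cxcl2, where 10.2% of all genes were. Of the 7, 6 were lower with zinc, at a median log2 fold change of -0.35, against 0.0062 over all genes. Without zinc 3, 8 were tested, since Cxcl9 then passed the filter, and 4 were higher and 4 lower, at a median of -0.05 against 0.0042 over all genes. For none of the 7 were all zinc libraries below all water libraries, which was so for 3.12% of genes. Among the 7, Cxcl1 (-1.37, and -0.92 without zinc 3) and Cxcl2 (-2.36, and -1.91 without it) had the lowest log2 fold changes in both fits, and neither passed.

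**Figure D5:**
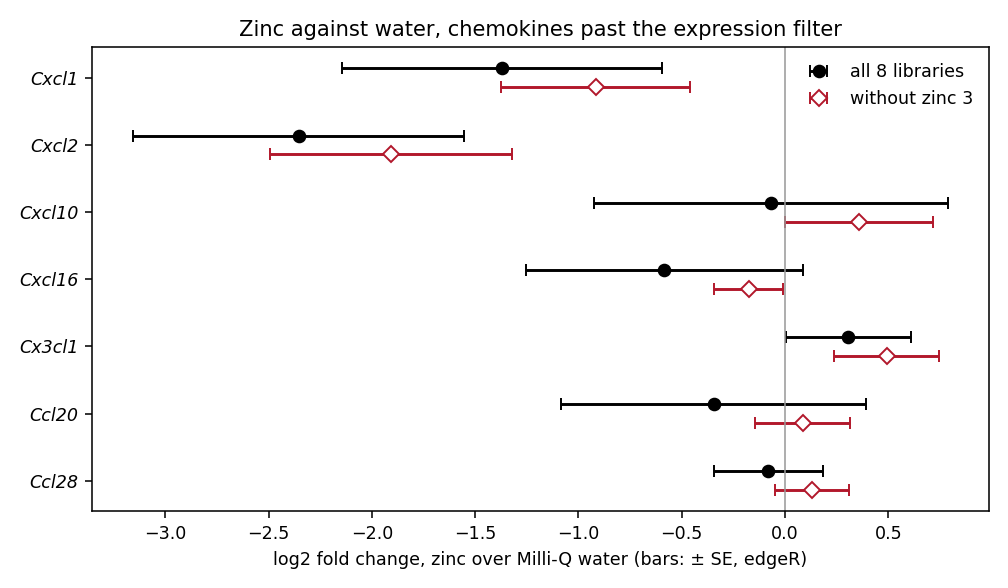
Log2 fold change of the 7 chemokines that passed the filter on low counts, zinc over Milli-Q water, with all 8 libraries (black) and without zinc 3 (red); bars are ± 1 SE from edgeR. The values for Cxcl10, Ccl20 and Ccl28 cross 0 when zinc 3 is left out, while Cxcl1 and Cxcl2 remain below 0.

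The other chemokine ligands place these levels. Of 29 further ligand genes, 20 had no count in any library and 4 passed the filter. Ccl6, a Ccr1 ligand, was the leading chemokine transcript of these cells at 1065 ± 334 CPM per kilobase (SD, n = 8), far above Cxcl10. It was at 1070, 1092, 1876 and 1543 CPM with water and at 1729, 1262, 2472 and 1222 CPM with zinc, highest in zinc 3 (log2 fold change 0.26, edgeR adjusted p 0.699; 0.01 without zinc 3). Ccl9, a related ligand of the same receptor, was at 115 ± 33.3 CPM per kilobase, with 305, 339, 534 and 401 CPM with water and 372, 283, 186 and 354 CPM with zinc (-0.40, edgeR adjusted p 0.535, and -0.23 without zinc 3). Cxcl11, the third ligand of Cxcr3, was at 26.5, 25.7, 47.5 and 32.1 CPM with water and at 28.8, 29.0, 0.211 and 17.9 CPM with zinc, where zinc 3 held 3 counts (-0.80, edgeR adjusted p 0.658, and -0.37 without zinc 3). Its exons overlap a pseudogene, Gm2673. Ccl25, the Ccr9 ligand of the small intestine, was at 2.87, 2.74, 6.03 and 3.36 CPM with water and at 8.34, 8.82, 10.5 and 0.645 CPM with zinc, and zinc 3 was its highest library (0.94, edgeR adjusted p 0.541, and 0.71 without zinc 3). Exons of Ccl25 overlap Elavl1 on the other strand, over 4.82% of its exon length. Of these 4 ligands zinc 3 was thus highest for Ccl6 and Ccl25 and lowest for Ccl9 and Cxcl11.

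Chemokine receptor transcripts were mostly absent. Of 23 receptor genes, 14 had no count in any library, 20 had no more than 10 counts in all and 2 passed the filter, both of them atypical receptors that do not signal for migration. Ccrl2, which presents the attractant chemerin, was at 30.6, 25.6, 32.4 and 21.6 CPM with water and at 18.7, 19.2, 4.56 and 23.1 CPM with zinc (-0.75, edgeR adjusted p 0.491). Zinc 3 was lowest again, and zinc 4 lay inside the water range. Without zinc 3 its log2 fold change was -0.43 (edgeR adjusted p 0.566). Ackr1, a scavenger of several chemokines, had 58 counts (4.07 CPM) in zinc 3 and at most 12 in any other library. Its log2 fold change was 1.09 with and -0.11 without zinc 3, and its exons overlap those of Cadm3, so its counts are uncertain.

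The pathway from TNF to NF-kB was measured in 25 of 26 genes, of which none was called (edgeR, smallest adjusted p 0.485). With all libraries 21 of the 25 were lower with zinc, at a median log2 fold change of -0.24, against 5263 of all 10707 genes tested. Without zinc 3 there were 12 higher and 14 lower, at a median of -0.03, where 5309 of all 10755 genes tested were lower. Zinc 3 was lowest for 21 of the 25 and at least 4-fold below the others for 10, against 30.0% and 2.19% of all genes tested. Tnfrsf1a, the main TNF receptor of epithelium, was at 192, 180, 144 and 155 CPM with water and at 147, 162, 97.7 and 179 CPM with zinc, so its transcript was present in every library. Tnfrsf1b, the second receptor, was at 40.7 to 72.5 CPM with water and at 43.5, 42.9, 4.84 and 41.9 CPM with zinc. Rela, the NF-kB subunit that activates transcription, was at 91.6 to 110 CPM with water and at 101, 104, 25.0 and 115 CPM with zinc. Nfkbia, the inhibitor that NF-kB itself induces, was at 467 to 534 CPM with water and at 439, 434, 28.6 and 507 CPM with zinc.

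The 3 genes of smallest unadjusted p in that pathway were Nfkbiz, Ikbkb and Tab1. Nfkbiz, a nuclear IkB protein that assists part of the NF-kB targets, was at 45.1, 46.0, 37.8 and 26.8 CPM with water and at 9.09, 18.0, 7.79 and 28.5 CPM with zinc. Its log2 fold change was -1.30 (SE 0.373, edgeR adjusted p 0.485), and -1.06 without zinc 3. Ikbkb, the kinase that marks Nfkbia for degradation, had a log2 fold change of -0.42 and Tab1, an adaptor of the kinase Tak1, of 0.37, with edgeR adjusted p of 0.485 and 0.503. Without zinc 3 these were -0.27 and 0.25.

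Interferon signalling was measured in 16 of 16 genes, with 15 lower with zinc, a median log2 fold change of -0.35 and none called. Of all 10707 genes tested, 5263 were lower. Zinc 3 was lowest for 14 of the 16 and at least 4-fold below the others for 2, against 30.0% and 2.19% of all genes tested. Without zinc 3, 12 of the 16 were lower, at a median of -0.18, against 5309 of all 10755 genes tested. Irf1, a transcription factor that drives Cxcl9 and Cxcl10, was at 141, 156, 169 and 156 CPM with water and at 110, 122, 22.9 and 86.0 CPM with zinc, and its groups did not overlap, as for 3.12% of all genes in this direction. Its log2 fold change was -0.87 (SE 0.393, edgeR adjusted p 0.485), and -0.55 (SE 0.140, adjusted p 0.5002) without zinc 3. Irf9, a DNA-binding factor of the interferon response, had a log2 fold change of -0.77 and Socs1, a feedback inhibitor of the pathway, of -1.14, neither past the threshold (edgeR adjusted p 0.485 and 0.485). Without zinc 3 these were -0.56 and -0.76.

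Chemokine mRNAs with AU-rich ends are short-lived, and 8 of 8 regulators of their decay were measured. Zfp36 (tristetraprolin), which binds these ends and speeds decay, was at 353, 284, 274 and 301 CPM with water and at 125, 304, 33.4 and 184 CPM with zinc (-0.91, SE 0.485, edgeR adjusted p 0.503, and -0.56 without zinc 3). Zc3h12a (regnase-1), an endonuclease of inflammatory mRNAs, was at 118, 94.0, 110 and 71.5 CPM with water and at 35.0, 51.9, 12.1 and 80.1 CPM with zinc (-1.13, SE 0.439, edgeR adjusted p 0.485, and -0.81 without zinc 3). Zfp36l2, a relative of Zfp36, had a log2 fold change of 0.68 and Rc3h1 (roquin-1), which binds stem-loops, of 0.32, with edgeR adjusted p of 0.485 and 0.491. Without zinc 3 these were 0.70 and 0.37. The list held 5 genes higher and 3 lower, at a median of 0.08, where 5444 of all 10707 genes tested were higher. Zinc 3 was lowest for 3 of the 8 and at least 4-fold below the others for 0, against 30.0% and 2.19% of all genes tested. Without zinc 3, 6 were higher and 2 lower, at a median of 0.11, where 5446 of all 10755 genes tested were higher.

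Genes whose profile over the libraries was most like that of the chemokines were sought among 7656 genes of at least 5 CPM on average. Over all 8 libraries those closest to Cxcl10, by Pearson correlation of log2 CPM, were Neurl3 (0.995), G3bp1 (0.986) and Bok (0.986), where the median over all genes was 0.125. Those closest to the median profile of the 7 chemokines tested were Cxcl11 (0.995), Mat2a (0.993) and Casp4 (0.993). These values rest on zinc 3, the library all profiles share as their low point. Over the other 7 libraries the closest to Cxcl10 were Gata6 (0.967), Aldh7a1 (0.962) and Rab27b (0.959), and to the median profile Ythdc2 (0.974), Mal2 (0.954) and Tfrc (0.953), and no gene appeared in both the list with and the list without zinc 3. The correlations describe these libraries, which share their depth and scaling.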

How the data were processed

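RNA from sorted PCs was sequenced from polyadenylated, strand-specific libraries (per the labels). The deposited file is a single table of raw counts for Ensembl genes, used as the authors gave it; the submitters' processing notes name FastQC 0.12.0, STAR 2.7.10a, DESeq2 and the mm39 genome, while the counter, its strand setting and its handling of multi-mapped reads were not known from the sources used here. Reads of overlapping genes on opposite strands may therefore be mixed. The table was matched to GENCODE M39 by Ensembl identifier (54749 matched, 665 did not, with 0.00443% of counts); lengths are those of the Ensembl canonical transcript. Groups and replicate numbers came from the sample titles.

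Zinc was compared with water in all 8 libraries with edgeR 4.0.16 under R 4.3.3 (quasi-likelihood F-test, TMM factors) and its default filter on low counts, which kept 99.89% of counts (biological coefficient of variation 0.269), with Benjamini-Hochberg adjustment over 10707 genes and a threshold of 0.05. The SE was taken as the size of the log2 fold change over the square root of F. No pair of libraries agreed within sampling noise (chi-square per degree of freedom at least 6.05 in 28 pairs), and each counted as 1 replicate. Same-numbered libraries of the 2 groups did not deviate together, so the numbers were not used as pairs. Log2 CPM used a prior count of 2. The steps were tested on simulated counts with known changes.

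Alternatives were DESeq2 1.42.0, limma-voom (limma 3.58.1) with sample weights, other scaling factors, Defa genes removed before scaling, no filter or a stricter one (1 CPM in 4 libraries and 100 counts), the replicate number as a block, exon-union lengths, other detection limits, Milli-Q water 3 and 4 left out together, and each library left out in turn. Named were all 10 chemokines, the further ligands and receptors that passed the filter, up to 3 genes of smallest p in each pathway list where none passed, a fixed set of genes (Tnfrsf1a, Tnfrsf1b, Rela, Nfkbia, Irf1, Adam10, Adam17, Zfp36 and another that is not reported here) and the genes of most like profile. The chemokines, lists and tests were chosen with earlier results of these data known. RefSeq promoter windows were searched for motifs on both strands. Protein sequences were not used here.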

Additional observations from a re-analysis of the deposited data

Results flagged for a closer look

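Of 17 sets of 4 libraries searched for a single value far from the rest, 1 was picked out, where chance alone gives about 0.85. It was Cxcl1 in Milli-Q water 3, at 7.14 CPM, against 4.65 CPM in the nearest and 4.32 CPM in the farthest of the other water libraries. The gap to the nearest library was 0.882 of the whole range. Cxcl10, Cxcl16 and Ccl20 also had their highest water value in Milli-Q water 3, at 27.3, 73.4 and 20.3 CPM, and this was the library of the smallest scaled size.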

How the results depend on the processing

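The count of genes past the threshold was 0 under all alternatives save DESeq2, which called 4, none of them among the 10 chemokines; it was also 0 with each library left out in turn (0 to 0) and with the replicate number as a block, where numbers do not pair the samples. Direction and side of the threshold held for Cxcl1, Cxcl2, Cxcl16 and Cx3cl1 under the 17 alternatives each. With single libraries left out, log2 fold changes ran from -2.60 to -0.92 for Cxcl1, from -3.28 to -1.90 for Cxcl2, from -0.84 to -0.18 for Cxcl16 and from 0.0376 to 0.49 for Cx3cl1. Cxcl10 turned higher with zinc under limma-voom with sample weights (0.0033) and with Milli-Q water 3 and 4 left out (0.088), and ran from -0.90 to 0.36 with single libraries left out, turning higher without Milli-Q water 3 (0.10), zinc 3 (0.36) or zinc 4 (0.15). Ccl20 ran from -0.73 to 0.085 (higher without zinc 3), and Ccl28 from -0.27 to 0.13 (higher without Milli-Q water 1, 0.08, or zinc 3, 0.13). All of these adjusted p stayed at 0.154 or above. The number of chemokines detected was 7 with 10 counts in at least 4 libraries, and 5 without zinc 3, an alternative added after the data had been seen. Depth limits Cxcl5 and Ccl2, whose levels were near what 3 counts allow, and Cxcl9 in zinc 2, 3 and 4, with 4, 0 and 0 counts.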

Other observations

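Zinc 1 was low for part of the genes that were low in zinc 3. The genes named in this paragraph were chosen after their values were seen, and no test was made. In zinc 1, Cxcl10 was at 45.5 CPM, the highest of the 8 libraries, and Ccl20 (20.1 CPM) and Cxcl16 (58.1 CPM) lay among the water values. Cxcl1 (0.843 CPM) and Cxcl2 (0.281 CPM) were there lower than in any library but zinc 3. The same held for Nfkbiz, at 9.09 CPM, Zc3h12a, at 35.0 CPM, Zfp36, at 125 CPM, and Socs3, an inhibitor of cytokine signalling, at 155 CPM against 400 to 630 CPM in the other libraries apart from zinc 3. Zinc 4 showed another combination, with Cxcl10 at 9.84 CPM and Ccl25 at 0.645 CPM, the lowest of the 8 for Ccl25, and Ccl28 at 27.7 CPM. The 4 zinc libraries thus differed among themselves in which chemokines were low. Water libraries differed among themselves too, with Cxcl2 at 1.68 to 7.25 CPM and Cxcl9 at 0.480 to 2.98 CPM.

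The ratio of Cxcl10 to Cxcl9 counts also varied by library. It was 10.8, 6.50, 31.7 and 37.2 in Milli-Q water 1 to 4 and 54.0 and 78.8 in zinc 1 and 2; zinc 3 had neither gene, and zinc 4 had 122 counts of Cxcl10 and none of Cxcl9. With 9 and 4 counts of Cxcl9 in zinc 1 and 2, and 7 and 6 in Milli-Q water 3 and 4, the ratios of these libraries are imprecise.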
